A study of Homo sapiens with 6 samples.

Results

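The Janus kinases JAK1, JAK2, JAK3 and TYK2 and the transcription factors STAT2, STAT3, STAT5A, STAT5B and STAT6 were followed in L428 cells after an siRNA against BATF3. Of the 9 listed genes 8 were measured, by 25 probe sets that the PrimeView annotation assigned to 1 of these symbols alone. These were 8 of 18244 genes and 25 of 49393 probe sets in all. STAT2, the partner of IRF9 in the interferon response, had no probe set in the annotation used here and was not analysed here.

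L428 is an established cell line from human Hodgkin lymphoma. By nucleofection, which opens cells with an electric pulse, it was given 3 µg of BATF3 siRNA or of a negative control siRNA, and total RNA was taken after 48 hours of culture. Each siRNA had 3 arrays, 6 in all, and both groups shared the cell line, the medium and the nucleofection. The model is 1 line with 1 BATF3 siRNA, and no label ties the 3 arrays of a group to separate cultures. The p-values below therefore rest on the spread among these samples, which may be technical.

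JAK kinases sit on the inner tails of cytokine receptors and phosphorylate the receptor when a ligand brings its chains together. STAT factors dock on the phosphorylated tail, are phosphorylated in turn, pair up and enter the nucleus to switch on genes, among them the SOCS and CISH inhibitors that shut the pathway off. In Hodgkin lymphoma the JAK2 gene is often gained and STAT factors are reported to act upstream of BATF3. BATF3 is a basic leucine zipper factor that pairs with JUN proteins and binds AP-1 sites. The comparison therefore asks whether the mRNAs of the kinases and factors that signal towards BATF3 differ once BATF3 mRNA is reduced. Activity of these proteins depends on phosphorylation, which mRNA arrays do not measure.

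BATF3 mRNA read 10.87, 10.76 and 10.69 after BATF3 siRNA and 11.89, 12.08 and 11.94 after control siRNA (log2, replicates 1 to 3). It fell by 1.20 (SE 0.095; limma adjusted p = 0.00673), to 0.436 of the control level, so BATF3 mRNA was reduced and not absent. Leaving out BATF3 siRNA replicate 3 (adjusted p = 0.0688) or control siRNA replicate 2 (0.0648), or taking array background as a block (0.306), ended that call. Array medians lay between 6.24 and 6.32. Background probe sets with 20 to 25 G or C bases in each probe averaged 5.92 and 5.98 on BATF3 siRNA replicates 2 and 3 against 6.46 to 6.49 on the other 4 arrays, BATF3 siRNA replicate 1 among them. Control siRNA replicate 2 stood apart on the first principal component (30.2% of the variance). Of 11 Hodgkin cell markers 10 lay above the highest background probe set of the array (6.68 to 7.32) on all 6 arrays, with CD30 (TNFRSF8) at 10.69 and 10.75 in the BATF3 and control siRNA groups. All 9 T and NK cell, 8 myeloid and 8 fibroblast or epithelial markers lay under that probe set on every array.

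None of the 8 measured genes was called at a limma adjusted p under 0.05 over all genes, where 0.0164% of genes (3 of 18244) were called. The adjusted p of the members ran from 0.475 for STAT5B to 0.993 for STAT3, and 1 member, STAT5B, had an unadjusted p under 0.05, where 7.15% of all genes did. Values of 6 members were lower and of 2 higher after BATF3 siRNA, with a median change of −0.040 (log2) against −0.0027 over all genes. The arrays of the siRNAs did not overlap for 2 of the 8 members, STAT5B and JAK1, against 12.1% of all genes (6.36% higher and 5.78% lower). All 8 lay above the highest background probe set on every array. Each gene is given by its probe set with the highest mean, and because probes differ in brightness, no gene's level is set against another's.

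**Figure D1:**
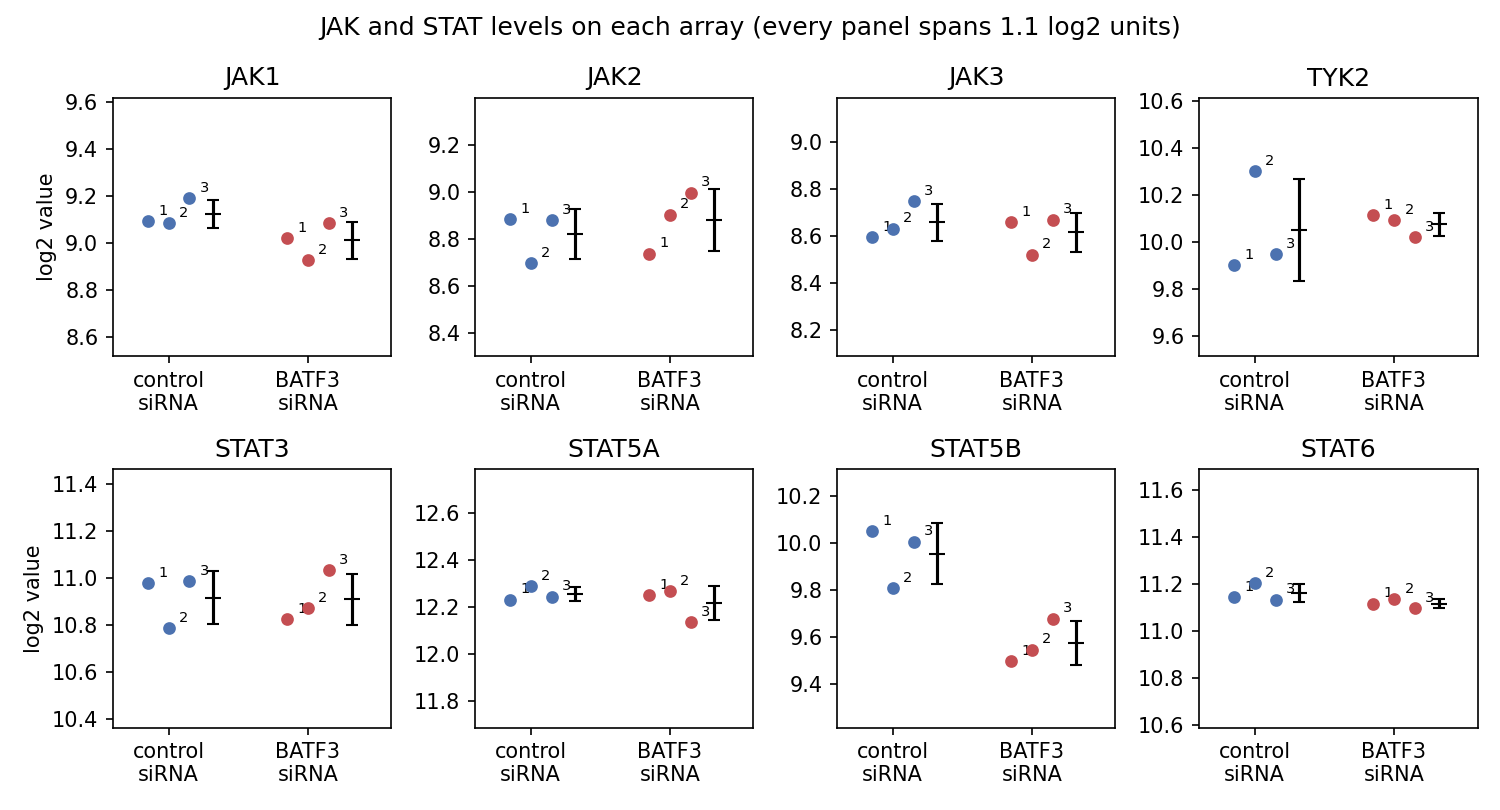
Log2 values of the 8 measured JAK and STAT genes on each array (blue, control siRNA; red, BATF3 siRNA; numbers are replicates; bars are the mean and SD of 3 arrays). STAT5B reads 9.50 to 9.68 after BATF3 siRNA and 9.81 to 10.05 after control siRNA, while the groups lie close together or overlap in the other panels.

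STAT5B, a factor activated by interleukin-2 family cytokines and growth hormone, had the largest difference among the 8 genes. It read 9.50, 9.55 and 9.68 on BATF3 siRNA replicates 1, 2 and 3 and 10.05, 9.81 and 10.01 on control siRNA replicates 1, 2 and 3 (log2). Every BATF3 siRNA array was lower than every control array, and control siRNA replicate 2 was the lowest control. The difference was −0.38 (SE 0.10; 95% confidence interval −0.61 to −0.15), a ratio of 0.768, and it did not pass the threshold (limma adjusted p = 0.475; unadjusted p = 0.00402). A difference of at least this size in either direction occurred in 1.86% of all genes, and a negative one in 0.828%. In a two-sided exact permutation test p was 0.1, which no design of 3 against 3 arrays can go below. BATF3 siRNA replicate 1, which had the background of the controls, lay 0.46 under the control mean, and replicates 2 and 3, with the lower background, lay at a mean of −0.34 from it.

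The other bright STAT5B probe set gave a similar picture. Probe set 11720229_a_at read 8.08, 7.82 and 7.90 after BATF3 siRNA and 8.43, 8.29 and 8.37 after control siRNA, again without overlap. Its difference was −0.43 (SE 0.10; 95% confidence interval −0.66 to −0.20; limma adjusted p = 0.418 over all probe sets, where 0.0101% were called). The remaining 2 STAT5B probe sets, 11759970_x_at and 11759969_at, were under the highest background probe set on all 6 arrays. There the values overlapped, with control siRNA replicate 2 highest (6.52 and 6.27) and control siRNA replicate 1 at 5.63 and 5.49, and the differences were −0.42 (SE 0.21) and −0.23 (SE 0.18). All 4 probe sets share 1 target gene and are not independent readings of the condition.

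STAT5A, the close relative of STAT5B that the same cytokines activate, did not show such a difference. It read 12.25, 12.27 and 12.13 after BATF3 siRNA and 12.23, 12.29 and 12.24 after control siRNA. Both groups covered the same range apart from a lower BATF3 siRNA replicate 3. The difference was −0.037 (SE 0.086; 95% confidence interval −0.23 to 0.16; limma adjusted p = 0.954), so a ratio from 0.853 to 1.11 lies within the interval. Its second probe set, 11745364_a_at, read 10.24, 10.19 and 10.10 against 10.18, 10.40 and 10.21, a difference of −0.086 (SE 0.099).

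The difference between both STAT5 genes was taken within each array and set to 0 at the control mean, for a pair chosen after their values were seen. STAT5B minus STAT5A was then −0.46, −0.42 and −0.16 on the BATF3 siRNA arrays and 0.12, −0.18 and 0.062 on the control arrays. BATF3 siRNA replicate 3 and control siRNA replicate 2 crossed, and the mean of −0.34 gave p = 0.2 in a two-sided exact permutation test. With probe set 11720229_a_at for STAT5B the values were −0.27, −0.55 and −0.34 against 0.088, −0.11 and 0.023, which did not overlap (mean −0.39; exact permutation p = 0.1). At 3 arrays per group neither form of the test can reach a p of 0.05.

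**Figure D2:**
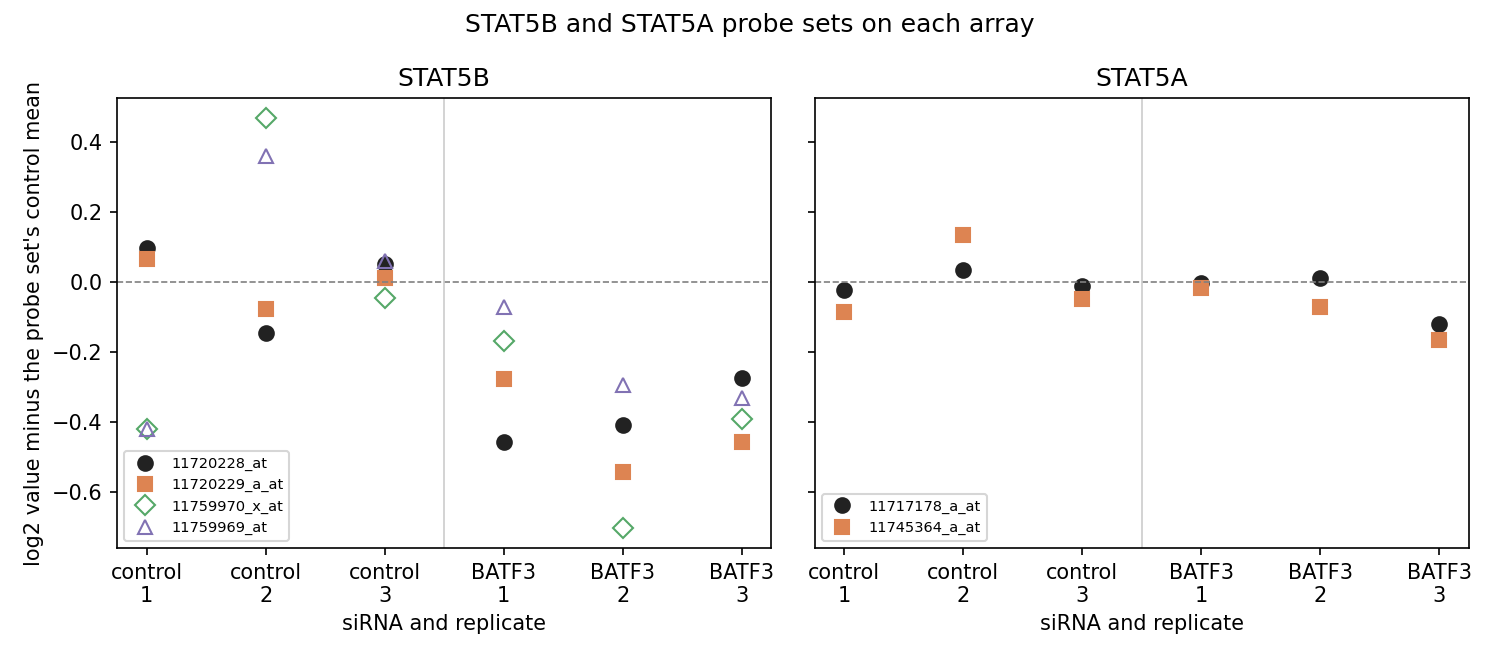
Log2 value of each STAT5B (left) and STAT5A (right) probe set on each array, minus that probe set's mean over the 3 control arrays. Open symbols are probe sets not above the highest background probe set on all 6 arrays; the filled STAT5B symbols lie lower on all BATF3 siRNA arrays than on any control array, and the STAT5A symbols do not.

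STAT5B, STAT5A and STAT3 are direct neighbours on chromosome 17 in the RefSeq gene table, with STAT5B and STAT5A on opposite strands. RefSeq sequences of STAT5B and STAT5A (GRCh38.p14) are shown as a description, and a link between sequence and readings was not tested. Each is the 250 bases before a transcript start, 5′ to 3′ on the gene's strand, with CG dinucleotides in capitals. STAT5B has 1 start in the table, and of the 3 for STAT5A the most upstream is given. The STAT5B stretch is chr17:42276392-42276641 (minus strand) and the STAT5A stretch is chr17:42287189-42287438 (plus strand).
STAT5B: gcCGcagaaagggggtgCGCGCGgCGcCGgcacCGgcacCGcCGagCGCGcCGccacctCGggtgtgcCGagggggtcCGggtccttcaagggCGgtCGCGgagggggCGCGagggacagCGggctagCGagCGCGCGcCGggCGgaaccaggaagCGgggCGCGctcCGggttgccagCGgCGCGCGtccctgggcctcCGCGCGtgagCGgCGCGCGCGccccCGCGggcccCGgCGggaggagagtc
STAT5A: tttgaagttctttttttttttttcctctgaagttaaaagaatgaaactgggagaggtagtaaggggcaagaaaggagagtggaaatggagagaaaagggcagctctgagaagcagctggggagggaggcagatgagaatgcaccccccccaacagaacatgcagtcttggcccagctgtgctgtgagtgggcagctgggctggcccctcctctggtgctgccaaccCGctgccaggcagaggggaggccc
The STAT5B stretch held 82% G and C bases and 47 CG dinucleotides, and the STAT5A stretch 54.8% and 1. The STAT5A value depends on the start chosen. In windows of 300 bases, 250 before and 50 after a start, its 3 starts gave 56.3%, 62.3% and 75% from upstream to downstream. The STAT5B window gave 82%.

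Promoter windows of 300 bases (250 before and 50 after a start) were searched on both strands for 3 motifs. These were the AP-1 site TGANTCA, which BATF and JUN pairs can bind, the CRE site TGACGTCA and the STAT site form TTCNNNGAA. None of the 16 windows of the 9 listed genes held any of them. The AP-1, CRE and STAT letters occurred in 7.71%, 1.85% and 7.66% of all 35116 windows. These are descriptions of letters in short windows. Other spacings between TTC and GAA were not searched, and enhancers were not examined.

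STAT6, the factor of interleukin-4 and interleukin-13 signalling, had 4 probe sets. The brightest read 11.12, 11.14 and 11.10 after BATF3 siRNA and 11.14, 11.20 and 11.13 after control siRNA. The groups overlapped narrowly, and the difference was −0.044 (SE 0.082; 95% confidence interval −0.23 to 0.14; limma adjusted p = 0.948). All 4 STAT6 probe sets had negative differences, from −0.24 to −0.044. In 11746850_a_at the groups did not overlap, at 8.96, 8.76 and 8.77 against 8.996, 9.11 and 9.11, and the difference was −0.24 (SE 0.097; limma adjusted p = 0.663).

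STAT3, which signals for interleukin-6, interleukin-10 and interleukin-21 receptors, read 10.82, 10.87 and 11.03 after BATF3 siRNA and 10.98, 10.79 and 10.99 after control siRNA. BATF3 siRNA replicate 3 was the highest array and control siRNA replicate 2 the lowest, and the groups overlapped. The difference was −0.0076 (SE 0.10; 95% confidence interval −0.23 to 0.22; limma adjusted p = 0.993), and it turned to 0.014 after median centring. Its 3 probe sets ran from −0.16 to −0.0076, and in 11750674_a_at the groups did not overlap (10.85, 10.60 and 10.72 against 10.88, 10.86 and 10.91). That probe set did not pass (limma adjusted p = 0.791).

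JAK1, the kinase that serves the widest range of cytokine receptors, had probe sets that disagreed in direction. The brightest, 11717687_a_at, read 9.02, 8.93 and 9.09 after BATF3 siRNA and 9.09, 9.09 and 9.19 after control siRNA. The groups did not overlap, but the nearest arrays were only 0.00027 apart. The difference was −0.11 (SE 0.088; 95% confidence interval −0.31 to 0.088; limma adjusted p = 0.849). Probe set 11717685_at was instead higher on every BATF3 siRNA array (9.07, 9.04 and 9.06) than on any control array (8.95, 9.02 and 8.89), by 0.10 (SE 0.087). The third, 11717686_a_at, overlapped at −0.012. Averaged over its probe sets JAK1 differed by −0.0063.

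JAK2, the kinase of the interferon-gamma, interleukin-3 and erythropoietin receptors, read 8.74, 8.90 and 8.996 after BATF3 siRNA and 8.88, 8.70 and 8.88 after control siRNA. BATF3 siRNA replicate 1 lay among the controls, and the groups overlapped. The difference was 0.059 (SE 0.10; 95% confidence interval −0.17 to 0.29; limma adjusted p = 0.943). With array background as a block it was −0.083, which sets BATF3 siRNA replicate 1 against the controls. All 3 JAK2 probe sets had positive differences in the fit without the block. In the dimmest, 11756857_a_at, the BATF3 siRNA arrays (7.51, 7.54 and 7.66) lay above the control arrays (7.36, 7.14 and 7.46), by 0.25 (SE 0.11; limma adjusted p = 0.691). On control siRNA replicates 1 and 2 that probe set was only just above the highest background probe set (7.32 and 7.11).

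JAK3, the kinase that binds the common gamma chain of the interleukin-2 receptor family, read 8.66, 8.52 and 8.67 after BATF3 siRNA and 8.60, 8.63 and 8.75 after control siRNA. The groups overlapped, with a difference of −0.042 (SE 0.091; 95% confidence interval −0.25 to 0.16; limma adjusted p = 0.954). With array background as a block the difference was 0.0015. Its 5 probe sets ran from −0.22 to −0.037, and 3 of them lay under the highest background probe set on every array. Among those 3 was 11761631_at, where the groups did not overlap (5.68, 5.85 and 5.79 against 5.86, 5.88 and 6.25).

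TYK2, the kinase of the type I interferon and interleukin-12 receptors, had 1 probe set. It read 10.11, 10.09 and 10.02 after BATF3 siRNA and 9.90, 10.30 and 9.95 after control siRNA. All 3 BATF3 siRNA arrays lay inside the range of the controls, which control siRNA replicate 2 widened. The difference was 0.025 (SE 0.12; 95% confidence interval −0.24 to 0.29; limma adjusted p = 0.981). Leaving out control siRNA replicate 1 gave −0.049, and leaving out replicate 3 gave −0.027. Each of the 7 members other than STAT5B was taken here by its brightest probe set. Their 95% confidence intervals lay between ratios of 0.806 (the lower bound of JAK1) and 1.22 (the upper bound of JAK2). Other probe sets of these genes reached beyond, among them 11756857_a_at of JAK2 (1.01 to 1.41) and 11746850_a_at of STAT6 (0.726 to 0.982).

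Probe set by probe set, 20 of the 25 differences were negative and 5 positive (48.9% of all probe sets were positive), with a median of −0.086 against −0.0036 over all probe sets. In 8 probe sets (32%) the groups did not overlap, 2 higher and 6 lower, against 12.2% of all probe sets (6.38% higher and 5.86% lower). An unadjusted p under 0.05 was reached by 4 probe sets, where 7.16% of all probe sets reached it. No probe set of a member passed over all probe sets in limma, and the smallest adjusted p was 0.418. Probe sets of 1 gene share its transcripts, so these counts hold fewer independent values than 25.

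**Figure D3:**
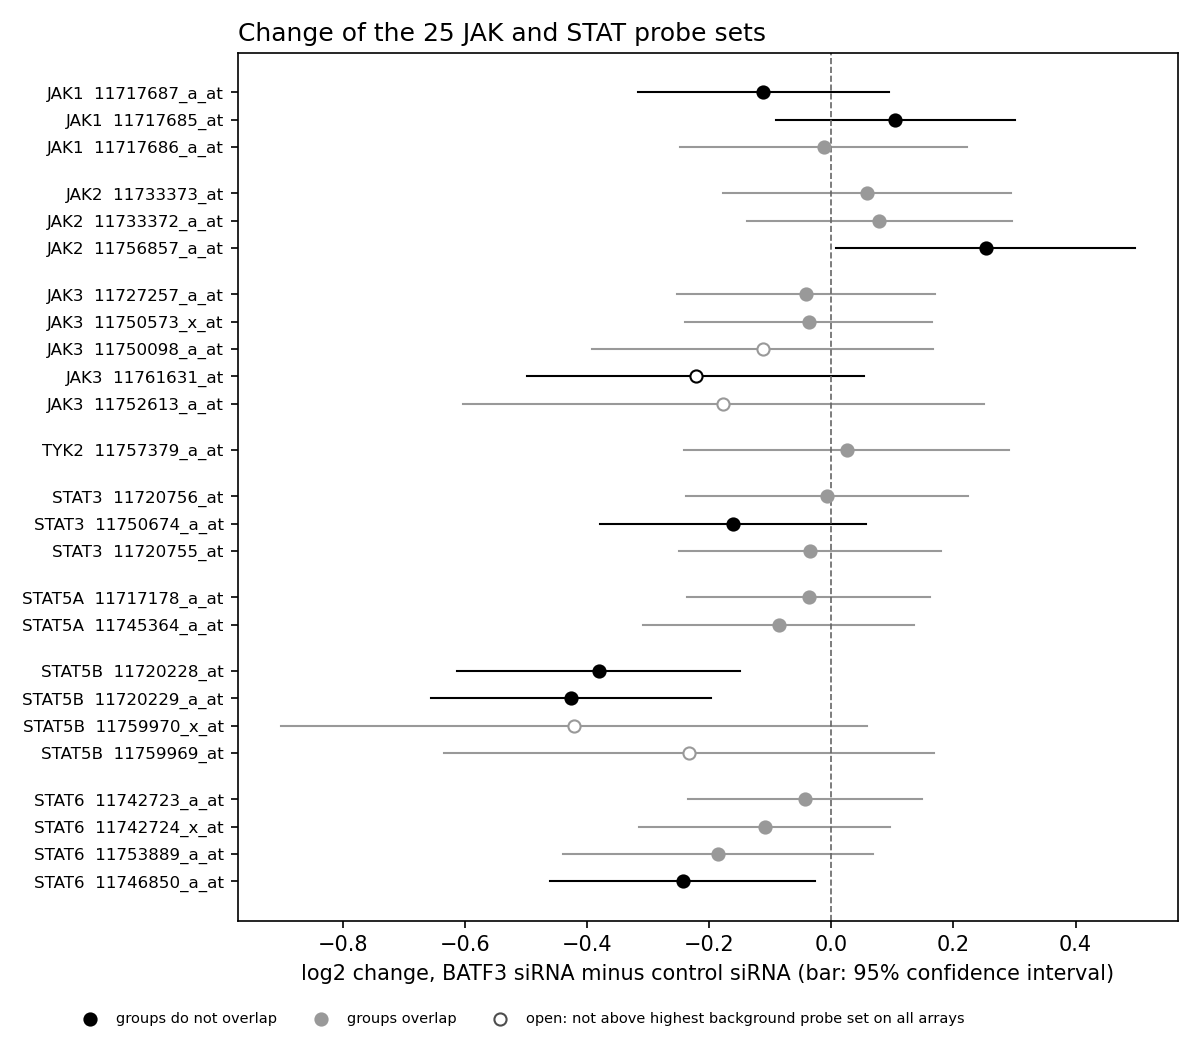
Log2 change of each of the 25 probe sets, BATF3 siRNA minus control siRNA, with 95% confidence intervals from limma over all probe sets; black marks probe sets whose groups do not overlap and open circles those not above the highest background probe set on all 6 arrays. The 4 STAT5B probe sets lie at −0.43 to −0.23, and JAK1 has non-overlapping probe sets on both sides of 0.

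Receptor chains that carry JAK kinases were followed in a list of 35 genes, of which 34 were measured. None passed with limma (3 had an unadjusted p under 0.05), 10 differences were positive and 24 negative, and the median was −0.075. The groups did not overlap for 6 of 34, where 12.1% of all genes did not overlap, 7.15% had an unadjusted p under 0.05 and 49.0% were positive. IL12RB1 and IL12RB2, the chains of the interleukin-12 receptor that bind TYK2 and JAK2, were at −0.32 and −0.28, and IL7R at +0.47 (limma adjusted p = 0.609, 0.668 and 0.612). All 3 lay under the highest background probe set on every array, and another probe set of IL12RB1 and one of IL12RB2 had positive differences (0.054 and 0.046). Averaged over probe sets IL12RB1, IL12RB2 and IL7R were at −0.12, −0.11 and +0.19. IL12RB1 was −0.21 without BATF3 siRNA replicate 2 and −0.13 with array background as a block, and IL12RB2 was −0.17 without control siRNA replicate 2 and −0.18 with array weights.

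Among 23 measured ligands of the pathway none passed with limma (3 had an unadjusted p under 0.05), with a median of −0.039 and 10 positive differences. The groups did not overlap for 4 of 23. Among all genes 12.1% did not overlap, 7.15% had an unadjusted p under 0.05 and 49.0% were positive. IL10 was at +0.37, IL5 at −0.41 and IL7 at −0.28 (limma adjusted p = 0.493, 0.503 and 0.528). The groups did not overlap for any of these 3, but each gene lay under the highest background probe set on all arrays. Of the 23 ligands, 19 lay under it on every array. Averaging of probe sets gave +0.24 for IL10 and −0.17 for IL7, and array background as a block gave −0.25 for IL5.

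Inhibitors of the pathway had 19 measured members, none called by limma (3 at an unadjusted p under 0.05), with a median of 0.016 and 10 positive differences. The groups did not overlap for 2 of 19, against 12.1% of all genes. An unadjusted p under 0.05 occurred in 7.15% of all genes and a positive difference in 49.0%. PTPRC (CD45), a membrane tyrosine phosphatase of blood cells that can dephosphorylate JAK kinases, read 7.22, 7.65 and 7.50 after BATF3 siRNA and 6.60, 6.31 and 6.69 after control siRNA. The groups did not overlap, and the difference was +0.92 (SE 0.14; limma adjusted p = 0.184). PTPRC passed under 5 of 16 alternatives, among them array weights (adjusted p = 0.0289) and leaving out dim genes (0.0431), within a range of 0.0162 to 0.827. PTPRC lay above the highest background probe set on the 3 BATF3 siRNA arrays and under it on the 3 control arrays. That background probe set was itself lower on BATF3 siRNA replicates 2 and 3 (6.68 and 6.73) than on the other arrays. With array background as a block the PTPRC difference was +0.68, and 5 of its 6 probe sets were higher in the fit without the block. SOCS2, a feedback inhibitor induced by STAT5, was at −0.60 (SE 0.20; adjusted p = 0.590) with overlapping groups, under the highest background probe set on every array. It was −0.17 with array background as a block, −0.40 without BATF3 siRNA replicate 2 and −0.38 averaged over its probe sets. USP18, an inhibitor of interferon receptor signalling, was at +0.20 (adjusted p = 0.697) without overlap.

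Partners and coactivators of STAT factors gave 0 called of 12 in limma (2 at an unadjusted p under 0.05), with a median of 0.018. The groups did not overlap for 1 of 12, where 12.1% of all genes did not overlap and 7.15% had an unadjusted p under 0.05. IRF9, which binds DNA together with STAT factors after interferon, read 9.33, 9.41 and 9.32 after BATF3 siRNA and 8.94, 9.21 and 9.21 after control siRNA. The groups did not overlap, at +0.23 (SE 0.10; limma adjusted p = 0.699), which was 0.14 without control siRNA replicate 1 and 0.10 averaged over probe sets. The adaptors STAP1 (+0.24) and SH2B2 (−0.19) lay under the highest background probe set on every array. STAP1 was 0.0027 with its most variable probe set and 0.12 averaged, and SH2B2 was −0.061 without BATF3 siRNA replicate 2, −0.12 without control siRNA replicate 2 and −0.071 with array background as a block.

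STAT target genes were followed in a list of 24, all measured, which holds BATF3 itself. BATF3 was the only one called, and the list overlaps the inhibitor list in the SOCS genes and CISH. Differences were positive for 19 of 24, where 49.0% of all genes were positive, with a median of 0.095. An unadjusted p under 0.05 in limma was reached by 6 of 24, BATF3 among them, where 7.15% of all genes reached it. Of the 24, 15 lay above the highest background probe set on all 6 arrays and 7 lay under it on every array. The groups did not overlap for 6 of 24, 5 of them higher, against 12.1% of all genes and 6.36% higher. PIM2, a survival kinase induced by cytokines, read 8.28, 8.11 and 8.36 after BATF3 siRNA and 7.94, 7.65 and 7.88 after control siRNA, a difference of +0.42 (SE 0.11; limma adjusted p = 0.459).

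Well-known STAT5 targets, all in the list of STAT target genes and so already in its counts, were named after their values were seen. PIM1, a kinase related to PIM2, was at +0.22 (SE 0.092; limma adjusted p = 0.689) without overlap. CISH, a feedback inhibitor, was at +0.077 (SE 0.10), the cell cycle gene CCND2 at +0.11 (SE 0.13) and the survival gene BCL2L1 at −0.020 (SE 0.13), all with overlapping groups. SOCS2, the STAT5-induced inhibitor given above, had a larger difference in the negative direction, −0.60 (SE 0.20; limma adjusted p = 0.590). Its groups overlapped, and it lay under the highest background probe set on every array. The named targets therefore did not share a direction. PIM1 ran from 0.16 without BATF3 siRNA replicate 1 to 0.35 with array background as a block. It was 0.16 with array weights, 0.18 averaged over its probe sets and 0.34 with its most variable one. CISH ran from 0.0033 without BATF3 siRNA replicate 1 to 0.22 with array background as a block. CISH was 0.15 without BATF3 siRNA replicate 2 and 0.12 without control siRNA replicate 2.

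**Figure D4:**
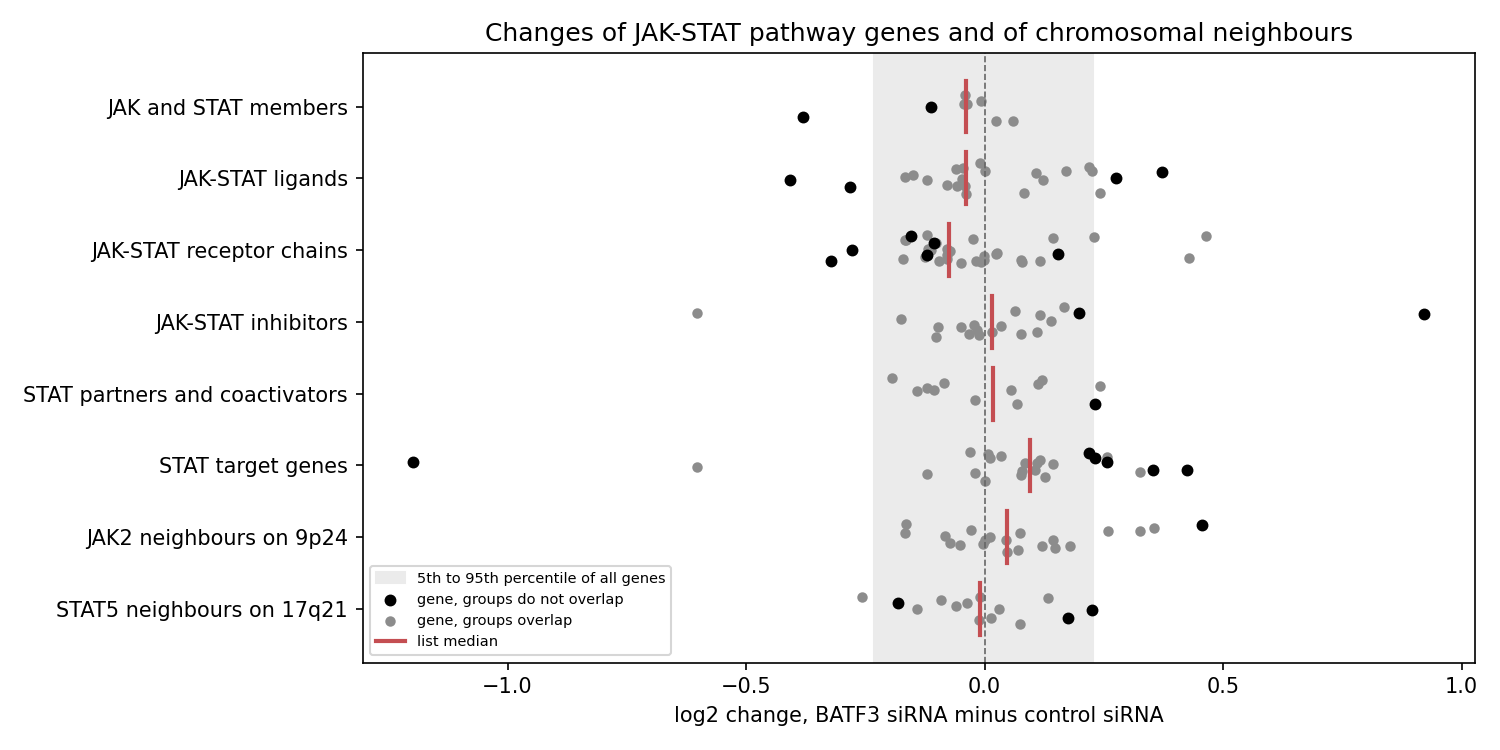
Log2 change of each measured gene, BATF3 siRNA minus control siRNA, in the JAK and STAT genes, 5 lists of their pathway and 2 lists of chromosomal neighbours (points, black where the groups do not overlap; red bars, list medians; grey band, 5th to 95th percentile of all genes, −0.23 to 0.23). STAT5B lies outside the grey band, and list medians run from −0.075 for receptor chains to 0.095 for STAT targets.

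Neighbours of JAK2 on the short arm of chromosome 9, a region gained as a block in Hodgkin lymphoma, were listed as 22 genes, of which 21 were measured. None passed with limma (2 had an unadjusted p under 0.05), 14 differences were positive, the median was 0.048, and the groups did not overlap for 1 of 21, where 12.1% of all genes did not overlap and 7.15% had an unadjusted p under 0.05. The relaxin hormone genes RLN1 (+0.46) and RLN2 (+0.35) did not reach the highest background probe set on any array. PDCD1LG2, which encodes the checkpoint ligand PD-L2, read 7.34, 6.90 and 7.17 after BATF3 siRNA and 6.98, 6.87 and 6.78 after control siRNA, with overlap (+0.26; limma adjusted p = 0.728). PDCD1LG2 lay above the highest background probe set on the 3 BATF3 siRNA arrays and under it on the 3 control arrays. That background probe set was lower on BATF3 siRNA replicates 2 and 3 (6.68 and 6.73) than on the other arrays. The PDCD1LG2 difference was 0.16 without BATF3 siRNA replicate 1 and 0.46 with array background as a block.

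Neighbours of the STAT5 genes on chromosome 17 gave 0 called of 14 measured in limma (1 at an unadjusted p under 0.05), with a median of −0.010 and non-overlapping groups for 3 (12.1% of all genes did not overlap and 7.15% had an unadjusted p under 0.05). NKIRAS2, an inhibitor of NF-kappaB signalling, was at +0.18 (SE 0.085), ZNF385C at +0.23 and HSD17B1, an oestrogen-making enzyme, at −0.18 (limma adjusted p = 0.736, 0.689 and 0.783). NKIRAS2 was 0.11 averaged over probe sets and 0.083 with its most variable one, and HSD17B1 was −0.10 without control siRNA replicate 3 and −0.28 with array weights. No neighbour among the 3 named was as far from 0 as STAT5B, and ZNF385C and HSD17B1 lay under the highest background probe set on every array.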

How the data were processed

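Total RNA of L428 cells was measured on 6 PrimeView arrays, 3 per siRNA. The authors deposited 1 log2 value per probe set and array; their range gave the base, which no source states. The affy package for R is named, per the submitters' processing notes; its background, scaling and summary steps are not given in the sources. Values were used as deposited. Such scaling hides a shift shared by most transcripts.

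Of 49495 probe sets 102 were controls. Symbols came from the platform annotation: 45278 probe sets had 1 gene, 1333 several and 2782 none, and 45208 identifiers matched RefSeq (GRCh38.p14). A gene took its probe set with the highest mean. The test was limma's (version 3.58.1, R 4.3.3, lmFit and eBayes, two-sided, Benjamini-Hochberg over all genes or all probe sets, threshold 0.05). A run on simulated data with independent noise required recovery only of changes larger than those reported here. It does not show that changes of the members' size would be called. The number of arrays limits the precision: the median SE was 0.107.

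The members and lists were chosen with earlier results of these data known. Named were BATF3, the members, and from each list called genes and the 3 with the smallest p. The alternatives were other normalizations, probe set choices, a filter on dim genes, array weights, another prior, blocks and leaving out each array.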

Additional observations from a re-analysis of the deposited data

How the results depend on the processing

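Under 16 alternatives no JAK or STAT gene was called (0 of 8 in each, with at most 1 at an unadjusted p under 0.05), and the smallest limma adjusted p of any was 0.0827, for STAT5B with array weights. Those weights rested most on control siRNA replicate 3 (3.85, against 0.38 to 1.27 on the other arrays). STAT5B kept its direction in all 16, from −0.46 to −0.33. Of 128 member values 114 kept their direction and 14 turned. After median centring STAT3 was 0.014, and with array background as a block JAK2 was −0.083 and JAK3 0.0015. Leaving out 1 array gave −0.0024 to 0.13 for JAK2, −0.073 to 0.0062 for JAK3, −0.049 to 0.15 for TYK2, −0.073 to 0.035 for STAT3 and −0.062 to 0.0043 for STAT5A. It gave −0.17 to 0.070 for BCL2L1 and −0.041 to 0.21 for CCND2, and BCL2L1 was 0.0015 after median centring and 0.28 with array background as a block.

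The members' median change was −0.018 after median centring, −0.056 with cyclic loess, −0.065 with probe sets averaged, −0.12 with the most variable probe set, −0.063 with array background as a block, and −0.051 to −0.024 with 1 array left out. The 3 called genes (1304 at an unadjusted p under 0.05 in limma) became 9 without dim genes and 5 with the most variable probe set. Without dim genes only those brighter than the median gene were tested, and 818 of them had an unadjusted p under 0.05. Called genes became 25 with array weights (3312 at an unadjusted p under 0.05) and 12 with an intensity trend and robust prior. They became 0 with array background as a block (1011 at an unadjusted p under 0.05) and 0 to 2 with 1 array left out. The 5 called probe sets became 11, 67, 9, 0 and 0 to 2 under the same settings apart from the probe set choice. The causes were not tested. The replicate number as a block called 3 genes and gave STAT5B an adjusted p of 0.499; the labels do not say what a number shares, and the deviations of same-numbered arrays correlated at 0.029, 0.15 and −0.025, so the numbers were not taken as pairs.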

Other observations

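Genes whose values over the 6 arrays were most like those of STAT5B or JAK1 were sought among genes brighter than the median gene. For STAT5B they were CEP250, a centrosome protein (Pearson r = 0.987; change −0.32), SERINC1, a membrane protein (r = 0.983; −0.62), and PINK1, a mitochondrial kinase (r = 0.977; −0.14). The limma adjusted p of these 3 changes was 0.493, 0.418 and 0.797, so none passed. For JAK1 they were KDM3B, a histone demethylase (r = 0.993), OCLNP1, a pseudogene (0.976), and TRIM25, an antiviral ubiquitin ligase (0.967). With 9121 genes compared over 6 arrays that share 2 groups, 12 genes exceeded r = 0.95 for STAT5B and 4 for JAK1, and the values are a description of these arrays.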
